A study of Homo sapiens with 14 samples.

Results

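The 43 genes described here code for parts of the extracellular matrix and the basement membrane: 16 collagen chains, 6 laminin chains, 4 nidogens and basement membrane proteoglycans, 6 matrix glycoproteins, 5 other proteoglycans, 3 enzymes and 3 inhibitors of matrix proteases. They were listed by family and role, with no measured value in the rule but with earlier results of these data known. Counts of members set beside all genes are thus a description. All 43 were found among the 58440 genes of the files through GENCODE annotation of GRCh38. The libraries came from HEK-293T, an adherent human line derived from embryonic kidney cells, and Jurkat, a human leukemia T cell line that grows in suspension. HEK-293T cells were obtained from ATCC and grown in DMEM and Jurkat cells were kept in RPMI, both with 10% serum. Counted cells were combined just before pelleting to make mixtures of equal cell number with 100, 80, 60, 50, 40, 20 or 0% HEK cells, so the lines did not grow together, and synthetic ERCC spike-in RNA was added. Each of the 7 conditions had 2 libraries, which the labels call technical replicates, so no p-value below measures the spread between cultures. Between the pure lines the p-values measure the spread between such libraries. Over the mixtures they also take in departure from the fitted line or the expected level.

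The extracellular matrix is the network of secreted proteins outside cells, and the basement membrane is its sheet-like form under epithelia and around vessels and muscle. Laminin chains assemble into trimers that form a network at the cell surface, type IV collagen chains form another, and nidogens and perlecan bridge them. Fibrillar collagens, fibronectin and fibrillins make fibres in connective tissue, heparan sulfate proteoglycans hold growth factors, lysyl oxidases cross-link collagen, and metalloproteinases and their inhibitors set its turnover. Adherent cells such as kidney epithelium make and sit on such a matrix, while circulating T cells attach to matrix made by others.

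Gene counts ranged from 4468822 to 28303668 per library, with a median of 13505082, and a limit of 3 counts corresponded to 0.106 to 0.671 CPM (gene counts on a per-million scale). Such limits and all intervals cover counting error only. All 10 T cell markers listed for this work were higher in pure Jurkat and 7 of 8 HEK-293T markers were higher in pure HEK, the exception being VIM. Markers of other matrix-making cells were near 0, since DCN, LUM, PDGFRA and PDGFRB of fibroblasts summed to at most 1.16 CPM and VWF, CDH5 and KDR of endothelium had at most 3 counts each over a line's pair of pure libraries. PECAM1, an endothelial marker that leukocytes also carry, reached 28.8 and 46.7 CPM in pure Jurkat. The myeloid markers LYZ, CD14 and CSF1R summed to at most 0.886 CPM. The libraries carry 1 of 2 group codes in their file names, with both pure HEK libraries in group 2 and both pure Jurkat libraries in group 1, and these codes cannot be told apart from the lines there. The counts of a condition's pair of libraries differed far beyond sampling noise in all 7 conditions.

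The comparison of the pure lines asks which matrix genes each line transcribes. HEK cells carried nearly all of this programme: the 43 genes summed to 818 and 796 CPM in pure HEK and to 71.0 and 71.4 CPM in pure Jurkat. Laminin chains took 26.0% and the proteoglycans VCAN, GPC3, GPC4, SDC1 and SDC2 took 27.5% of the summed counts in HEK. In Jurkat 76.6% of a far smaller sum came from 6 genes, TIMP2, FBN1, FN1, LAMB1, NID2 and SPARC. Of these, TIMP2 (CEP295NL), LAMB1 (DLD) and NID2 (RTRAF) overlap the coding gene in brackets. So do COL9A3 (TCFL5), COL18A1 (SLC19A1), LAMA4 (an unnamed gene), LAMA5 (ADRM1), HSPG2 (LDLRAD2), FBN2 (SLC27A6), THBS1 (FSIP1), LOX (SRFBP1) and LOXL2 (ENTPD4). Whether reads of such neighbours were counted for these members was not tested, which matters most for low levels. By edgeR's quasi-likelihood test over all genes, 29 of the 43 were called higher in HEK and 0 higher in Jurkat at an adjusted p under 0.05. Of the 15794 tested genes, 24.2% were called higher in HEK and 19.0% higher in Jurkat. DESeq2 called 26 members higher in HEK and 0 higher in Jurkat, beside 3158 and 2661 over all genes. For 0 members did the test give a higher level in Jurkat even at an unadjusted p under 0.05. The filter on low counts left 35 members, of which 27 had fewer than 10 counts in each pure Jurkat library and so passed through their level in HEK alone. The number called among those that passed is therefore a description and no support. Without that filter, 33 of 43 were called higher in HEK and 0 higher in Jurkat, beside 5352 and 3550 over all genes. In simulated data the edgeR test called 8% of genes given a 2-fold change between the lines and 92% given a 4-fold change. The changed genes were all above 10 CPM, and changes at lower levels were not simulated. A member that was not called may therefore still differ, and at a low level by more than a small factor. HSPG2 did not pass at a fitted 6.18-fold. The samples were made to equal cell number, and CPM does not show how much RNA a cell held. Pure HEK libraries held 10.0 times as many gene counts per spike-in count as pure Jurkat libraries. The values were 147 and 97.3 in pure HEK and 12.1 and 12.3 in pure Jurkat. The study itself puts mRNA content at about 6 times higher in HEK cells from the spike-ins. Why the 2 figures differ was not tested. Scaled to spike-in counts, all 35 tested members were called higher in HEK, but so were 14616 of the 15794 tested genes, with 509 higher in Jurkat. The median gene shifted by 3.61 on the log2 scale, so these calls are not particular to the members.

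**Figure D1:**
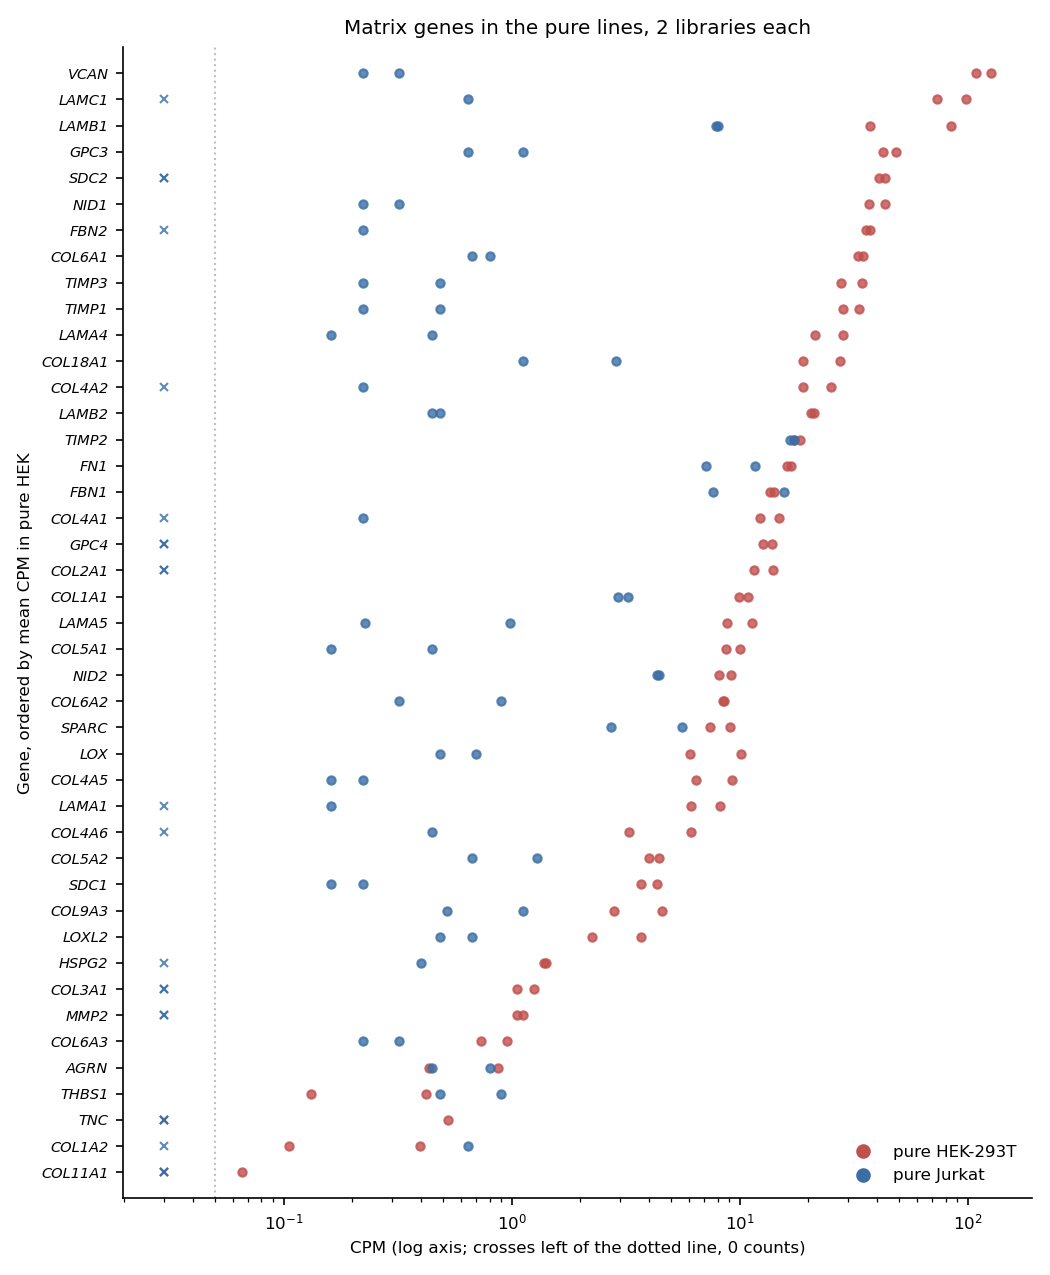
CPM on a log axis of the 43 matrix genes in the 2 pure HEK-293T libraries (red) and the 2 pure Jurkat libraries (blue), ordered by mean CPM in pure HEK, each point a library and crosses marking 0 counts. The red and blue points lie far apart for most genes, and they overlap for COL1A2, COL11A1, AGRN, FBN1, TNC and TIMP2.

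Laminin chains were among the most abundant members. LAMC1 (ENSG00000135862.5, chr1:183023420-183145592, plus strand) is the gamma-1 chain shared by most laminin trimers. It stood at 73.5 and 98.8 CPM in pure HEK and at 0 and 0.645 CPM in pure Jurkat (log2 fold change 7.59, SE 0.66, edgeR adjusted p = 0.00139). Its mixed libraries read 86.0 and 75.6 CPM (80% HEK), 36.1 and 36.3 (60%), 147 and 35.4 (50%), 83.5 and 30.1 (40%), and 90.5 and 44.9 (20%). These values fell into a low set, of both 60% libraries, 50% replicate 2, 40% replicate 2 and 20% replicate 2, and a high set with the others, and the low set did not follow the percentage of HEK cells. LAMB1 (ENSG00000091136.13, chr7:107923799-108003213, minus strand) is the beta-1 chain, and its span overlaps DLD on the other strand. It stood at 84.6 and 37.4 CPM in pure HEK and at 8.06 and 7.90 CPM in pure Jurkat (log2 fold change 2.70, SE 0.45, edgeR adjusted p = 0.00869). Its mixed libraries read 142 and 85.0 CPM (80% HEK), 43.7 and 36.4 (60%), 133 and 40.0 (50%), 44.3 and 36.8 (40%), and 38.1 and 31.5 (20%). The pure HEK pair itself differed widely, and 80% replicate 1 and 50% replicate 1 lay far above both pure HEK libraries, with 80% replicate 2 just above the higher of them. LAMB2 (ENSG00000172037.13, chr3:49121114-49133118, minus strand) is the beta-2 chain of kidney filter and synapse basement membranes. It stood at 21.2 and 20.5 CPM in pure HEK and at 0.448 and 0.484 CPM in pure Jurkat (log2 fold change 5.21, SE 0.33, edgeR adjusted p = 7.24e-04) and was steadier in the mixtures. There it read 17.3 and 20.0 CPM (80% HEK), 25.4 and 26.3 (60%), 17.4 and 28.6 (50%), 13.3 and 22.9 (40%), and 14.9 and 13.2 (20%). LAMA5 (ENSG00000130702.15, chr20:62307955-62367312, minus strand) is the alpha-5 chain of most epithelial basement membranes. It stood at 11.3 and 8.78 CPM in pure HEK and at 0.980 and 0.227 CPM in pure Jurkat (log2 fold change 4.13, SE 0.59, edgeR adjusted p = 0.00555). Its mixtures read 7.62 and 7.48 CPM (80% HEK), 9.97 and 9.64 (60%), 7.40 and 13.8 (50%), 8.42 and 6.94 (40%), and 4.81 and 5.48 (20%). Of the other alpha chains, LAMA4 of vessels and nerve had 28.5 and 21.4 CPM in pure HEK with 3 counts in all of pure Jurkat, 85.7-fold by the ratio of counts (95% interval 29.2 to 417). The embryonic chain LAMA1 had 8.16 and 6.11 CPM with 1 count in Jurkat. All 6 laminin members were called higher in HEK, none of their pure libraries overlapped, and LAMB1 was the only chain above 1 CPM in Jurkat. Of the 38748 genes detected in any library, 28.1% had both pure HEK libraries above both pure Jurkat libraries.

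The order of levels depended on how length was handled. Per length, in TPM, the highest means over the 14 libraries were those of LAMB1, LAMC1, TIMP1, LAMB2, VCAN, GPC3, SDC2, COL6A1, LAMA5 and FN1, of which 7 were also among the 10 highest in CPM. TPM divides by a length that RSEM sets in each library from the transcripts it assigns reads to. The study primed its cDNA with a barcoded oligo-dT primer, so reads may lie near the 3′ end and counts need not rise with length. Whether division by length is apt for these libraries was not tested, and TPM orders and ratios carry that limit. For LAMC1 the TPM ran from 4.24 to 120.4 over the 12 libraries with HEK cells, a 28.4-fold span. Its CPM ran from 30.1 to 147, a 4.89-fold span. SDC2 likewise had TPM values of 39.5 and 13.3 in the pure HEK libraries, beside CPM values that were nearly equal. In TPM, 12 members spanned more than 5-fold over these 12 libraries, against 4 in CPM. The order among LAMB1, LAMC1 and TIMP1 is thus within their spread. Levels of a gene across libraries are given in CPM below.

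Basement membrane collagens were HEK genes throughout: all 5 were called higher in HEK, and none of their pure libraries overlapped (28.1% of detected genes lay apart in this direction). COL4A2 stood at 19.0 and 25.3 CPM in pure HEK and at 0.224 and 0 CPM in pure Jurkat, 244-fold by the ratio of counts (95% interval 43.6 to 9661). Its partner chain COL4A1 stood at 12.3 and 14.8 CPM in pure HEK and at 0.224 and 0 CPM in pure Jurkat, 148-fold by the ratio of counts (95% interval 26.4 to 5858). These chains form the most widespread type IV collagen trimer. COL4A5, mutated in X-linked Alport syndrome, had 6.45 and 9.30 CPM in pure HEK, and COL4A6, its neighbour on chromosome X, had 3.28 and 6.14 CPM. Each had 2 counts in all of pure Jurkat. The call for COL4A6 was lost without pure HEK replicate 2 (edgeR adjusted p = 0.121) or without pure Jurkat replicate 2 (adjusted p = 0.0581). COL18A1, the source of endostatin, stood at 27.6 and 19.0 CPM in pure HEK and at 1.12 and 2.86 CPM in pure Jurkat (log2 fold change 3.23, SE 0.46, edgeR adjusted p = 0.00548).

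Type IV collagen genes lie head to head in pairs, which makes the sequence between their start sites a shared promoter region. The interval between the RefSeq start sites of COL4A1 on the minus strand (110307157) and COL4A2 on the plus strand (110307284) is shown in full because it serves both genes, whose starts are 127 bases apart. The 250 bases before the COL4A5 start (108439838) are shown because a COL4A6 start lies 380 bases away on the other strand (108439458). Both are plus strand sequence of GRCh38.p14 read 5′ to 3′ from RefSeq promoter records, which were found for 29 of the 43 genes. Capitals mark matches to the CCAAT box (CCAAT) and the GC box (GGGCGG) on either strand.
COL4A1-COL4A2, chr13:110307158-110307283: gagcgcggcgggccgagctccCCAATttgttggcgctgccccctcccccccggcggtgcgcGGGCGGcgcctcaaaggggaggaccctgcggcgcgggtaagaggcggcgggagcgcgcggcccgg
COL4A5, chrX:108439588-108439837: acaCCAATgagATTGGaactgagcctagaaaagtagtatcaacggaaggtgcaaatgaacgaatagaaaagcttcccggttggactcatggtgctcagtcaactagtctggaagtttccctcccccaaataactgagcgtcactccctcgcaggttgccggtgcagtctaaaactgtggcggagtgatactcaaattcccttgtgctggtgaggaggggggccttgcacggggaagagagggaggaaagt
The shared COL4A1-COL4A2 interval held 1 match to each motif, and the COL4A5 stretch held 2 CCAAT matches, 1 on each strand, and 0 GC boxes. Of 35116 start sites in the same records, 21.1% had CCAAT and 34.6% had GGGCGG within 126 bases before the start, and 32.0% and 42.6% had them within 250 bases. Per length, COL4A1 was below COL4A2 in all 12 libraries with HEK cells, the ratio of their TPM values running from 0.120 to 0.820 with a median of 0.376. In CPM the ratio ran from 0.587 to 1.43 with a median of 0.716, and it was above 1 in 1 library. COL4A5 was above COL4A6 in 11 of the 12, with a median TPM ratio of 2.09 and a range of 0.757 to 3.06. In CPM the median of this ratio was 1.75 and the range 0.697 to 2.68. The 5′ ends of COL4A1 and COL4A2 overlap in the annotation. The study describes strand-specific libraries primed by oligo-dT, but the counting is not stated to use strand. Reads from the overlap, if any, could thus go to either gene.

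Among nidogens and basement membrane proteoglycans, NID1 alone was called. NID1, which links laminin to collagen IV, stood at 36.8 and 43.4 CPM in pure HEK and at 0.224 and 0.322 CPM in pure Jurkat, 145-fold by the ratio of counts (95% interval 49.6 to 706). Its paralog NID2 stood at 8.12 and 9.15 CPM in pure HEK and at 4.45 and 4.33 CPM in pure Jurkat (log2 fold change 0.75, SE 0.26, edgeR adjusted p = 0.0684). NID2 was called under library totals (0.97, adjusted p = 0.0316) and spike-in scaling, and its pure libraries did not overlap. HSPG2, the gene of perlecan, was low in HEK, at 1.38 and 1.42 CPM, with 2 counts in Jurkat (log2 fold change 2.63, SE 0.86, edgeR adjusted p = 0.0584), and it did not pass. It was called without the filter (adjusted p = 0.0241), with all 14 libraries in the fit (adjusted p = 0.0230), under library totals (adjusted p = 0.0433) and under spike-in scaling (adjusted p = 3.49e-10). AGRN, the gene of agrin, had 0.435 and 0.873 CPM in HEK and 0.448 and 0.806 CPM in Jurkat, overlapping values too low to be tested.

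Fibrillar and other collagens were expressed as uneven sets of chains. COL6A1 (ENSG00000142156.14, chr21:45981770-46005050, plus strand) is a chain of the beaded filament collagen VI. It stood at 34.8 and 33.0 CPM in pure HEK and at 0.671 and 0.806 CPM in pure Jurkat (log2 fold change 5.25, SE 0.30, edgeR adjusted p = 6.43e-04). Its mixed libraries read 24.7 and 30.0 CPM (80% HEK), 38.6 and 37.6 (60%), 22.2 and 49.2 (50%), 19.9 and 28.4 (40%), and 23.6 and 22.4 (20%), and every one of them lay above both Jurkat libraries. COL6A2, the partner chain from the same locus, had 8.46 and 8.58 CPM in pure HEK (log2 fold change 3.65, SE 0.47, edgeR adjusted p = 0.00407). COL6A1 exceeded it in all 12 libraries with HEK cells, by 3.02 to 7.56 times in TPM and 3.68 to 5.49 times in CPM. COL6A3, the third chain, was at 0.952 and 0.732 CPM in HEK with 3 counts in Jurkat, too low to be tested. Of type I collagen, COL1A1 stood at 10.9 and 9.96 CPM in pure HEK and at 2.94 and 3.22 CPM in pure Jurkat (log2 fold change 1.53, SE 0.27, edgeR adjusted p = 0.00976). Its partner COL1A2 was at 7 counts in all of pure HEK and 4 in pure Jurkat. COL2A1, the collagen of cartilage, stood at 14.1 and 11.6 CPM in HEK with 0 counts in Jurkat, at least 44.7-fold higher against a floor of 3 counts over the pair of Jurkat libraries. COL5A1, which starts fibrils together with collagen I, had 8.68 and 10.0 CPM in HEK and 3 counts in Jurkat, 33.8-fold by the ratio of counts (95% interval 11.4 to 165). COL5A2 (4.44 and 4.02 CPM in HEK, log2 fold change 1.82, SE 0.44, edgeR adjusted p = 0.0250) and the cartilage collagen COL9A3 (4.55 and 2.81 CPM in HEK, log2 fold change 2.01, SE 0.57, edgeR adjusted p = 0.0387) were also called, which made 4 of 7 fibrillar and 3 of 4 other collagens. Without pure HEK replicate 1 the calls of COL1A1 (edgeR adjusted p = 0.0776), COL5A2 (0.174) and COL9A3 (0.280) were lost, and without pure HEK replicate 2 they were lost too (0.0631, 0.154 and 0.118). With DESeq2, COL5A2 (adjusted p = 0.0997) and COL9A3 (0.109) did not pass. COL5A2 also lost its call without pure Jurkat replicate 1 (adjusted p = 0.0554) and COL9A3 without pure Jurkat replicate 2 (adjusted p = 0.136). COL3A1, the collagen of vessels and hollow organs, was at 1.06 and 1.25 CPM in HEK with 0 counts in Jurkat, at least 4.19-fold higher. COL11A1, a cartilage collagen chain, had 1 count in HEK and 0 in Jurkat, under the floor in both lines.

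Of the 6 matrix glycoproteins, FN1, FBN1 and SPARC were above 1 CPM in all 4 pure libraries and were not called between the lines. Their fitted differences were below 2-fold, a size this test seldom called even for the better expressed genes changed in simulated data. Equal levels are thus not shown. FBN2 was called higher in HEK, and THBS1 and TNC were too low to be tested. FN1 (ENSG00000115414.18, chr2:215360440-215436073, minus strand) is the gene of fibronectin. It stood at 16.8 and 16.2 CPM in pure HEK and at 11.6 and 7.09 CPM in pure Jurkat (log2 fold change 0.61, SE 0.30, edgeR adjusted p = 0.156). Its mixed libraries read 12.2 and 15.9 CPM (80% HEK), 9.36 and 16.3 (60%), 13.4 and 18.3 (50%), 19.0 and 12.3 (40%), and 11.7 and 9.39 (20%). The pure lines did not overlap in these 4 libraries, the difference did not pass the test, and every mixture but 50% replicate 2 and 40% replicate 1 lay within the range of the pure libraries. FBN1, the main microfibril protein of adult tissue, stood at 13.6 and 14.2 CPM in pure HEK and at 7.61 and 15.6 CPM in pure Jurkat and overlapped between lines (log2 fold change 0.01, SE 0.37, edgeR adjusted p = 0.980). Its sign turned under DESeq2 size factors (-0.02) and without pure Jurkat replicate 1 (-0.41). FBN2, its counterpart of developing tissue, was by contrast a HEK gene, at 37.3 and 35.8 CPM in pure HEK and at 0.224 and 0 CPM in pure Jurkat, 388-fold by the ratio of counts (95% interval 69.5 to 15348). SPARC, a collagen-binding glycoprotein, stood at 7.41 and 9.10 CPM in pure HEK and at 5.59 and 2.74 CPM in pure Jurkat (log2 fold change 0.80, SE 0.40, edgeR adjusted p = 0.161). Without pure Jurkat replicate 1, FN1 (adjusted p = 0.0397) and SPARC (0.0434) were called higher in HEK, and SPARC was also called without the filter (0.0434). THBS1, the gene of thrombospondin-1, had 6 counts in HEK and 7 in Jurkat, too few to be tested. In CPM it read 0.423 and 0.132 in pure HEK and 0.895 and 0.484 in pure Jurkat. Its pure libraries did not overlap, with Jurkat higher, but these values lie near the floor. TNC, the gene of tenascin-C, had 8 counts in HEK, all in replicate 2, and 0 in Jurkat. Its pure libraries thus overlapped at 0, and no difference is shown.

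All 5 cell-surface and large proteoglycans were called higher in HEK. VCAN (ENSG00000038427.15, chr5:83471618-83582303, plus strand) is the gene of versican. It had the highest CPM of the 43 genes, at 108 and 126 CPM in pure HEK and at 0.224 and 0.322 CPM in pure Jurkat, 425-fold by the ratio of counts (95% interval 145 to 2060.0). The mixtures read 108 and 99.9 CPM (80% HEK), 133 and 103 (60%), 86.6 and 101 (50%), 79.5 and 101 (40%), and 99.4 and 86.7 (20%), so the 20% HEK libraries, though below both pure HEK libraries, stayed far above pure Jurkat. GPC3 (ENSG00000147257.13, chrX:133535745-133987100, minus strand) is a glypican made by embryonic tissue and liver tumours. It stood at 48.7 and 42.4 CPM in pure HEK and at 1.12 and 0.645 CPM in pure Jurkat (log2 fold change 5.49, SE 0.34, edgeR adjusted p = 7.00e-04). Its mixed libraries read 50.1 and 54.5 CPM (80% HEK), 40.9 and 38.0 (60%), 32.6 and 39.9 (50%), 59.6 and 36.8 (40%), and 19.4 and 27.7 (20%), with the lowest at 20% HEK. GPC4, the neighbouring glypican gene, had 13.9 and 12.7 CPM in HEK and 0 counts in Jurkat, at least 46.7-fold higher. SDC2 (ENSG00000169439.11, chr8:96493813-96611790, plus strand) is a syndecan of mesenchymal cells. It stood at 40.7 and 43.2 CPM in pure HEK and 0 CPM in both pure Jurkat libraries, at least 150.3-fold higher, the largest such bound among the members. SDC1, the epithelial and plasma cell syndecan, was lower, at 3.70 and 4.35 CPM with 2 counts in Jurkat, 21.9-fold by the ratio of counts (95% interval 5.91 to 183), and its call was lost without pure HEK replicate 2 (edgeR adjusted p = 0.0617).

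The enzymes were low and the inhibitors were not. LOX (ENSG00000113083.13, chr5:122063195-122078413, minus strand) is a copper enzyme that cross-links collagen and elastin. It stood at 6.03 and 10.1 CPM in pure HEK and at 0.700 and 0.484 CPM in pure Jurkat (log2 fold change 3.59, SE 0.51, edgeR adjusted p = 0.00545). Its relative LOXL2 stood at 3.70 and 2.24 CPM in pure HEK and at 0.671 and 0.484 CPM in pure Jurkat (log2 fold change 2.12, SE 0.55, edgeR adjusted p = 0.0304). LOXL2 lost its call when any of the 4 pure libraries was left out (edgeR adjusted p from 0.0749 to 0.290), and DESeq2 did not call it (adjusted p = 0.121). MMP2, the gelatinase of stromal cells, had 1.06 and 1.12 CPM in HEK and 0 counts in Jurkat, at least 3.90-fold higher. TIMP1 (ENSG00000102265.11, chrX:47582408-47586789, plus strand), a secreted metalloproteinase inhibitor, overlaps SYN1 on the other strand. It stood at 33.2 and 28.3 CPM in pure HEK and at 0.224 and 0.484 CPM in pure Jurkat (log2 fold change 6.09, SE 0.38, edgeR adjusted p = 7.32e-04). Its mixed libraries read 23.7 and 33.0 CPM (80% HEK), 36.9 and 38.2 (60%), 22.3 and 43.2 (50%), 17.1 and 31.3 (40%), and 17.5 and 22.8 (20%). The lowest were 40% replicate 1 and 20% replicate 1, and the highest was 50% replicate 2. TIMP3, the inhibitor that stays bound to the matrix, stood at 34.5 and 27.7 CPM in pure HEK and at 0.224 and 0.484 CPM in pure Jurkat (log2 fold change 6.11, SE 0.40, edgeR adjusted p = 7.55e-04). TIMP2, which also takes part in activating MMP2, was the Jurkat line's highest member, at 18.4 and 17.3 CPM in pure HEK and at 17.4 and 16.7 CPM in pure Jurkat, and was nearly level between lines (log2 fold change -0.16, SE 0.20, edgeR adjusted p = 0.574). The sign of TIMP2 turned under library totals (0.07), without the filter (0.0043) and under spike-in scaling (3.40), where per spike-in count it was called higher in HEK (adjusted p = 5.55e-09).

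**Figure D2:**
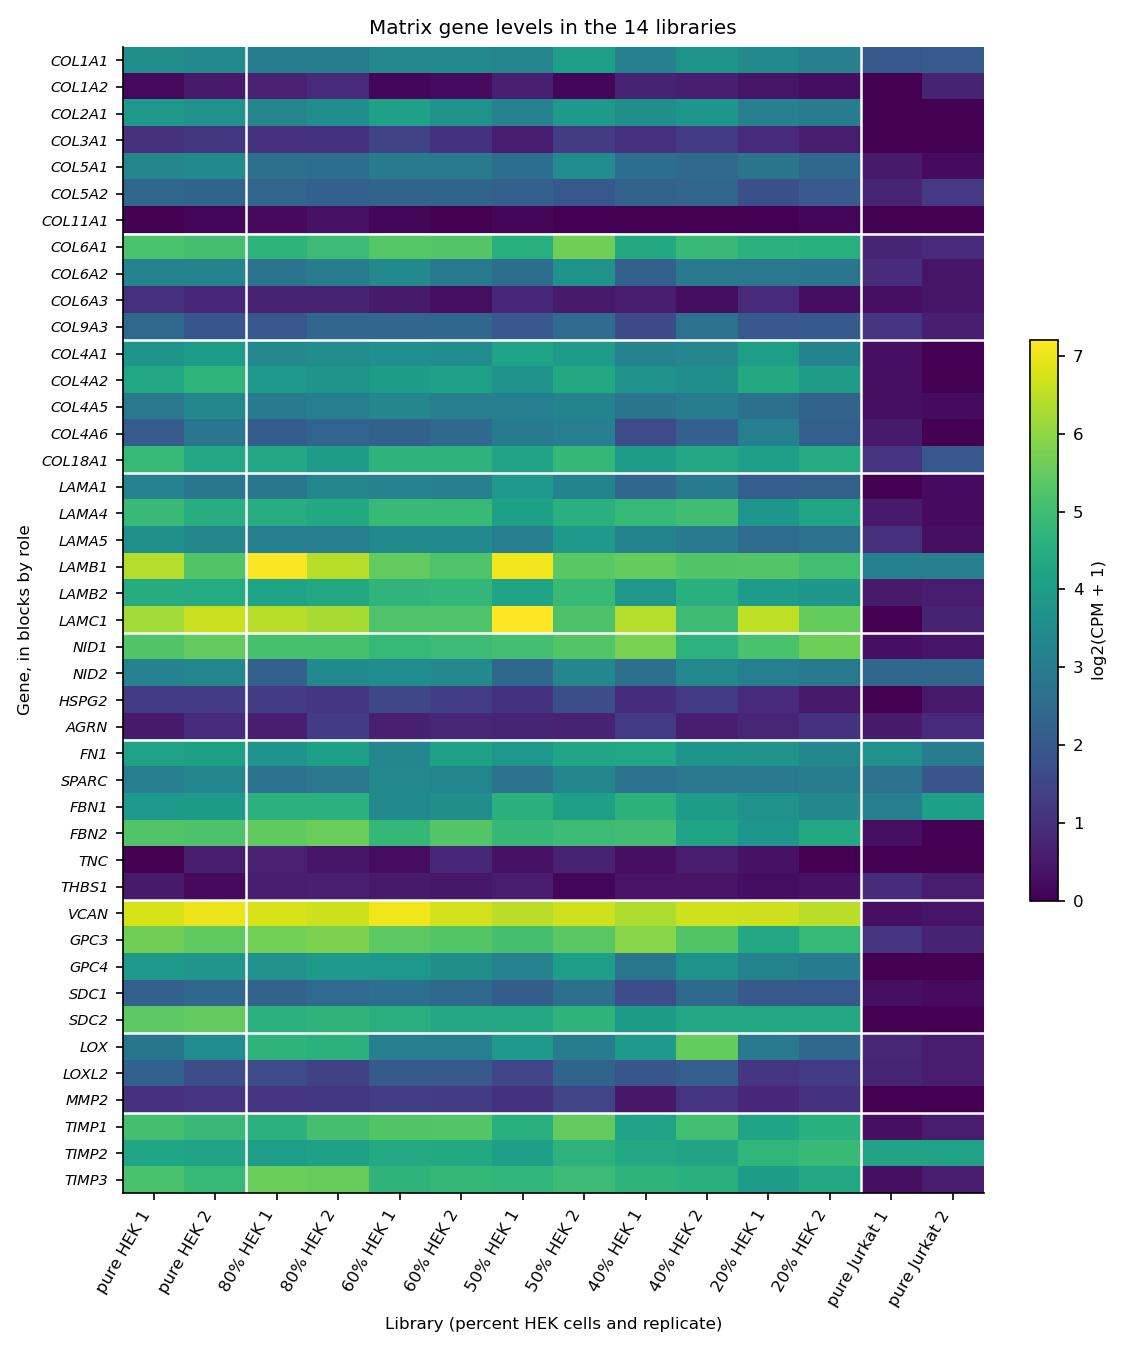
Level of each of the 43 matrix genes, as log2(CPM + 1) in color, in the 14 libraries ordered from pure HEK on the left to pure Jurkat on the right, with white lines between roles and around the mixed libraries. The 10 mixed libraries look like pure HEK for most genes, and in the 2 pure Jurkat columns TIMP2, FBN1, FN1 and LAMB1 stand out.

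The mixtures ask how far the HEK matrix programme shows when HEK cells are diluted. In CPM most of it remained: the 43 genes summed to 830.3 and 794 CPM (80% HEK), 711 and 680.0 (60%), 793 and 758 (50%), 662 and 645 (40%), 592 and 545 (20%). The 20% HEK libraries thus kept 70.4% of the pure HEK sum in CPM, beside 12.9% of it per spike-in count. Over genes that are not members, the HEK share of RNA in those libraries was estimated at 63.7% and 66.4%, from 8972 genes. At 20% HEK, 34 of the 43 genes lay above both pure Jurkat libraries in both replicates, where 27.7% of the 38748 genes detected in any library did so. In all 12 libraries with HEK cells 31 of 43 did so (16.4% of detected genes), and in both pure HEK libraries 36 did (28.1%). Of the 24 called genes with at least 5 CPM in pure HEK, the 20% HEK mean was between 0.442 and 1.03 times the pure HEK mean in CPM, with a median of 0.638. The spike-in scale itself was noisy, since at 80% HEK the pair of libraries held 46.6 and 123 gene counts per spike-in count.

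**Figure D3:**
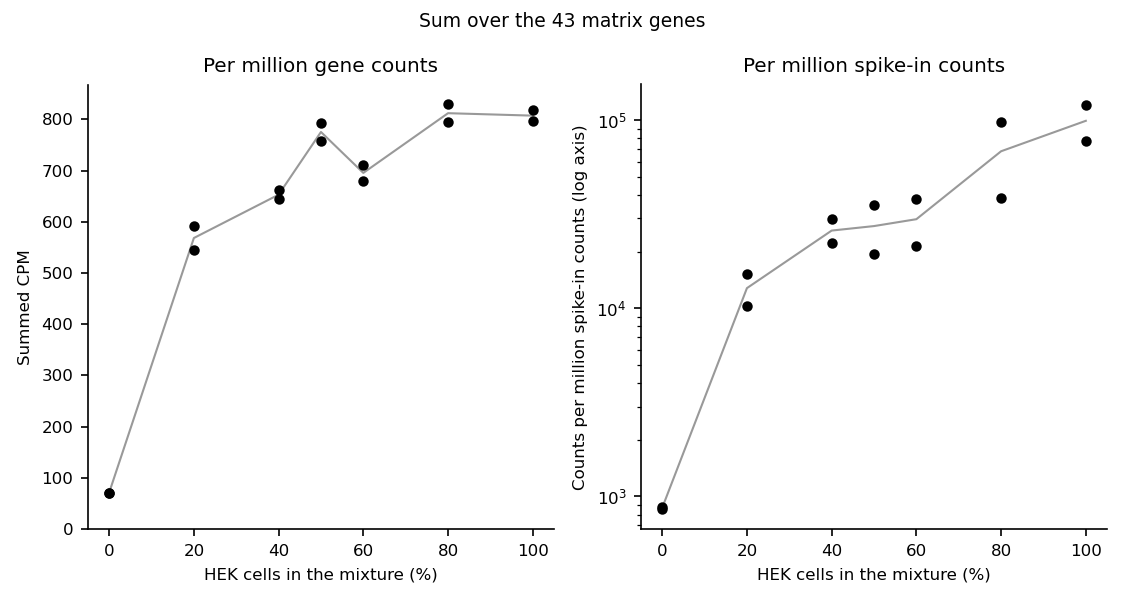
Sum over the 43 matrix genes in each library (points) and its mean per condition (gray line) against the percentage of HEK cells, in CPM on the left and relative to spike-in counts on a per-million scale (log axis) on the right. In CPM the mixtures sit between 545 and 830, against 71.0 and 71.4 in pure Jurkat, while per spike-in count the mean falls at each step from 100 to 0% HEK.

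The trend over the 10 mixed libraries, which uses none of the pure libraries, is given as the fitted log2 change in level from 20% to 80% HEK cells. Of the 39 members tested, TIMP3 and FBN2 rose with more HEK cells and 0 fell, where 0.643% of 18516 tested genes rose and 4.82% fell. TIMP3 (ENSG00000100234.11, chr22:32801705-32863041, plus strand, overlapping SYN3 on the other strand) read 47.1 and 45.3 CPM (80% HEK), 24.7 and 27.1 (60%), 25.7 and 29.6 (50%), 24.7 and 22.6 (40%), and 14.4 and 19.1 (20%). The 80% pair was above and the 20% pair below every other mixture, and the change was called (log2 change 1.33, SE 0.23, edgeR adjusted p = 0.00387). FBN2 (ENSG00000138829.11, chr5:128257909-128659185, minus strand) read 42.3 and 46.8 CPM (80% HEK), 27.0 and 37.7 (60%), 27.1 and 29.7 (50%), 31.2 and 17.5 (40%), and 12.9 and 19.3 (20%), again with the 80% pair highest (log2 change 1.39, SE 0.30, edgeR adjusted p = 0.0147). FBN2 lost its call without 20% HEK replicate 1 (adjusted p = 0.103), 80% HEK replicate 1 (0.0680) or 80% HEK replicate 2 (0.0875). Both 80% libraries carry group code 2 and all libraries at 40% and 20% code 1. With that code as a term neither gene passed (TIMP3 1.42, adjusted p = 0.0706 and FBN2 1.74, adjusted p = 0.0550), though the fitted changes were as large. TIMP2 had the lowest estimate, with 15.5 and 16.4 CPM (80% HEK), 20.3 and 19.8 (60%), 15.7 and 24.1 (50%), 19.8 and 17.6 (40%), and 25.6 and 28.4 (20%) (log2 change -0.71, SE 0.20, edgeR adjusted p = 0.0591). It passed downward with DESeq2 (adjusted p = 0.0180) or without 40% HEK replicate 2 (edgeR adjusted p = 0.0355). Its sign turned under spike-in scaling (1.09), where the median gene shifted by 1.83. There 38 of the 39 members were called upward, beside 13654 of the 18516 tested genes. For the other 36 members tested, the estimates ran from -0.47 for COL4A6 to 1.57 for LAMB1 and did not pass.

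The last comparison asks whether a member's level in a mixture was the sum of what the pure lines bring. The expected CPM was the HEK share of RNA times the mean of the pure HEK libraries plus the rest times the mean of the pure Jurkat libraries. It was taken as known, so the error of the pure levels is not in the test. Of 39 members tested, LOX was above and SDC2 and COL5A1 below the expected level, where 8.08% and 7.03% of 18473 tested genes were called above and below. The other 36 did not pass, and the median log2 ratio of the members was 0.03, as over all genes tested. SDC2 read 23.1 and 24.7 CPM (80% HEK), 22.4 and 19.2 (60%), 19.3 and 24.6 (50%), 14.2 and 19.2 (40%), and 18.8 and 19.4 (20%). All 10 mixtures were below the expected level, at 0.429 to 0.705 of it (log2 ratio -0.79, SE 0.09, edgeR adjusted p = 1.34e-04), and even the 80% HEK pair lay far below the pure HEK pair. COL5A1 (ENSG00000130635.15, chr9:134641803-134844843, plus strand) read 5.27 and 5.11 CPM (80% HEK), 6.70 and 6.65 (60%), 5.05 and 10.2 (50%), 5.10 and 4.65 (40%), and 5.84 and 4.27 (20%). It was below expected in 9 of 10 mixtures, at 0.566 to 1.19 of it (log2 ratio -0.43, SE 0.12, edgeR adjusted p = 0.0257), with 50% replicate 2 as the exception. That call was lost without any of 20% replicate 2, 40% replicate 2, 50% replicate 1, either 80% library or pure HEK replicate 2 (edgeR adjusted p from 0.0514 to 0.0608). LOX read 24.9 and 23.5 CPM (80% HEK), 7.58 and 7.57 (60%), 14.0 and 7.32 (50%), 13.9 and 44.8 (40%), and 6.59 and 4.28 (20%). It was above expected in 8 of 10 mixtures (log2 ratio 1.11, SE 0.23, edgeR adjusted p = 0.00668), most in 40% replicate 2, at 6.36 times the expected level. Its partner library at 40% had 2.15 times and the 60% pair had 1.00 and 1.01 times. Without 40% replicate 2 the log2 ratio of LOX was 0.77 (adjusted p = 0.0234). The number of members called rose from 3 to 8 without pure HEK replicate 1 and to 7 without pure HEK replicate 2. Of the added genes none was shared between these settings. Calls over all genes rose as well, from 1493 above and 1298 below to 2726 and 2000 without replicate 1. Without replicate 2 they were 3029 and 2192, so the rise is not particular to the members.

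**Figure D4:**
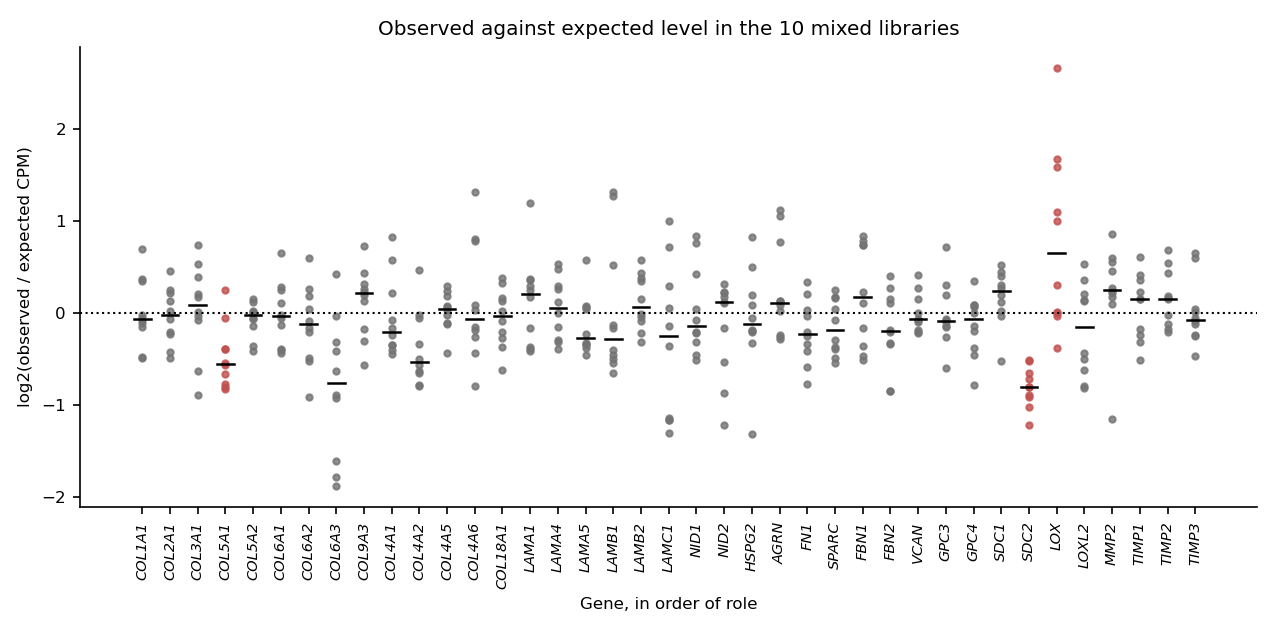
Log2 ratio of observed to expected CPM in the 10 mixed libraries (points) for the 39 matrix genes tested, with the median of each gene as a bar and genes called against additive mixing in red. SDC2 lies below 0 in all 10 libraries, COL5A1 in 9, and LOX reaches 6.36 times the expected level in 1 library.

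The spread of the mixtures around the expected level was compared with that of all genes above a minimum level, without matching on level. Over the 9208 genes with a mean of at least 10 CPM in the mixtures, the SD of the log2 ratio of observed to expected level had a median of 0.307, and for the 21 members among them it was 0.345. LOX (SD 0.910), LAMC1 (0.832) and LAMB1 (0.735) stood at percentiles 98.5, 98.1 and 96.9 of those genes, and the other 18 members were below percentile 90. Relative to the expected level, both laminin chains were highest in 50% replicate 1, LAMB1 at 2.50 and LAMC1 at 2.00 times it, and LOX in 40% replicate 2. The pair of laminin chains ran from 0.379 to 1.66 as a CPM ratio of LAMB1 to LAMC1 across the 12 libraries with HEK cells.

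**Figure D5:**
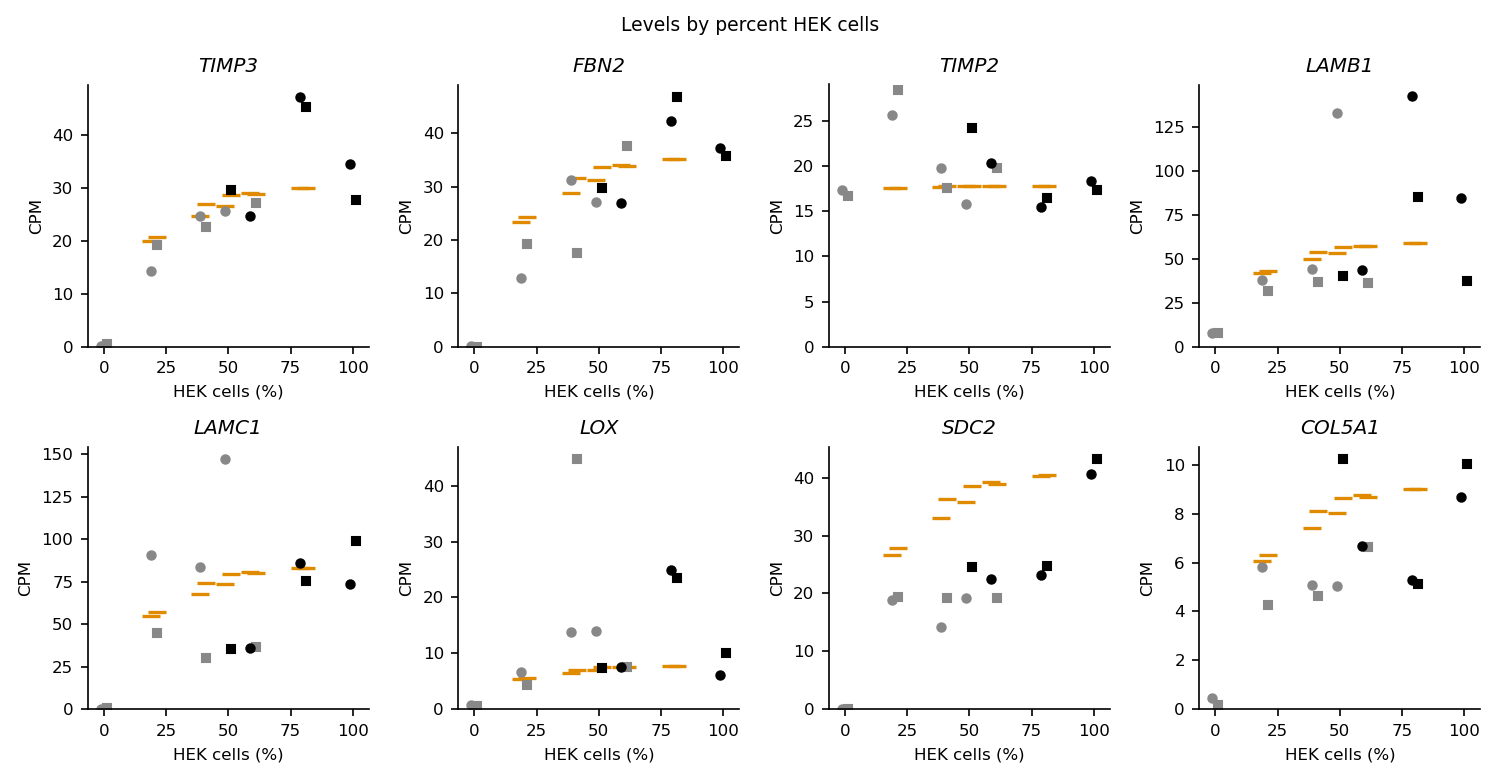
CPM of 8 matrix genes against the percentage of HEK cells in the 14 libraries, with circles for replicate 1 and squares for replicate 2, gray for file-name group 1 and black for group 2, and orange bars for the expected level of each mixed library. SDC2 lies under its bars throughout, TIMP3 and FBN2 are highest at 80% HEK, and LAMC1, LAMB1 and LOX scatter widely around their bars.

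Most of the genes that make collagen ready for secretion were higher in HEK as well. Of 26 enzymes, chaperones and processing factors of collagen synthesis, 23 were tested, 16 were higher in HEK and 0 were higher in Jurkat (24.2% and 19.0% of all tested genes). Their median log2 fold change was 1.78, beside 0.07 over all genes tested. PLOD2, which hydroxylates the lysines of collagen ends, stood at 47.5 and 56.6 CPM in pure HEK against 0 and 0.322 CPM in pure Jurkat, 283-fold by the ratio of counts (95% interval 78.3 to 2343). COLGALT2, a collagen galactosyltransferase, stood at 24.4 and 20.8 CPM in pure HEK against 0 and 0.161 CPM in pure Jurkat, 237-fold by the ratio of counts (95% interval 42.4 to 9387). ADAMTS3, which removes the N-terminal propeptide of procollagen, stood at 13.2 and 5.67 CPM in pure HEK with 0 counts in pure Jurkat, at least 30.5-fold higher. Median, counts and calls here share the 4 pure libraries with the members, so they are no separate evidence.

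Matrix genes of the same families that are not members were called in both directions. Of 68, only 31 passed the filter, of which 18 were higher in HEK and 4 higher in Jurkat (24.2% and 19.0% of all tested genes), and 5 had 0 counts in all pure libraries. Their median log2 fold change was 2.24. GPC6, a glypican, had 26.3 and 12.1 CPM in HEK and 0 counts in Jurkat, at least 62.5-fold higher, with bounds also for the microfibril gene MFAP2 (at least 17.6-fold) and the fibril-associated collagen COL14A1 (at least 14.2-fold). The 4 higher in Jurkat were THBS2, a thrombospondin (0 and 0.0660 CPM in pure HEK against 4.70 and 4.84 CPM in pure Jurkat, 118-fold by the ratio of counts (95% interval 20.2 to 4735) toward Jurkat), the fibulin gene EFEMP1 (log2 fold change -4.07, SE 0.42, edgeR adjusted p = 0.00226), FBLN2, another fibulin (log2 fold change -3.59, SE 0.29, edgeR adjusted p = 0.00109), and the glypican GPC2 (log2 fold change -2.72, SE 0.34, edgeR adjusted p = 0.00366). Under spike-in scaling EFEMP1 (-0.61) and FBLN2 (-0.12) did not pass and the sign of GPC2 turned (0.83). Without pure HEK replicate 2 the list had 13 calls, 9 of them higher in HEK. The call of COL14A1 was lost there too (adjusted p = 0.0548).

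Non-integrin receptors and sensors of the matrix were the last list. Of 21, 17 were tested, 10 were higher in HEK and 3 higher in Jurkat (24.2% and 19.0% of all tested genes), with a median log2 fold change of 1.3. The share higher in Jurkat was thus near that over all genes. Toward HEK were DMD, the gene of dystrophin (5.29 and 4.68 CPM in HEK, 0 counts in Jurkat, at least 17.5-fold), the sarcoglycan SGCE (78.9-fold by the ratio of counts (95% interval 14.0 to 3135)) and DAG1, the laminin receptor dystroglycan (35.7 and 137 CPM in pure HEK against 14.1 and 6.12 CPM in pure Jurkat; log2 fold change 2.89, SE 0.77, edgeR adjusted p = 0.0332). DAG1 differed widely within the HEK pair and lost its call without pure HEK replicate 2 (edgeR adjusted p = 0.0791), pure Jurkat replicate 1 (0.0703) or pure Jurkat replicate 2 (0.134). Toward Jurkat were LAIR1, the inhibitory collagen receptor of leukocytes (0.212 and 0 CPM in pure HEK against 47.0 and 37.3 CPM in pure Jurkat; 508-fold by the ratio of counts (95% interval 139.9 to 4211)), CD47, a thrombospondin receptor (log2 fold change -1.50, SE 0.21, edgeR adjusted p = 0.00551), and the dystrophin relative UTRN (log2 fold change -0.95, SE 0.20, edgeR adjusted p = 0.0159). Per spike-in count the signs of CD47 (2.08) and UTRN (2.58) turned, and both were called higher in HEK. CD47 lost its call without pure HEK replicate 2 (adjusted p = 0.0571) and UTRN without pure HEK replicate 1 (0.151) or 2 (0.105). The list as a whole had 6 calls without pure HEK replicate 1 and 5 without replicate 2.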

How the data were processed

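Poly-A RNA of 14 HEK-293T and Jurkat libraries was sequenced by the authors. Per the submitters' processing notes, reads were handled with STAR 2.6.1b and RSEM 1.3.1 on GRCh38, and per the file headers the deposited gene tables hold expected counts and TPM. The study describes the libraries as strand-specific and primed with a barcoded oligo-dT primer. Whether counting used strand is not given in the sources used here. First-strand cDNA of the libraries was pooled by a qPCR of Actb before amplification, so the counts of a library partly reflect pooling.

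Expected counts were rounded to whole numbers, and CPM was taken over genes without the 92 spike-ins, while the authors' TPM was rescaled over the same genes. Members and lists were matched by symbol through GENCODE 44, which named 57754 of 58440 genes, and were chosen with earlier results of these data known. edgeR 4.0.16 (R 4.3.3; TMM, filterByExpr, quasi-likelihood test, Benjamini-Hochberg over all genes tested, adjusted p under 0.05) compared the pure lines, fitted the slope on the percentage of HEK cells over the 10 mixed libraries, and tested the mixtures against an expected level of at least 0.2 CPM. The HEK share of RNA minimised the summed absolute log2 difference over non-member genes with at least 10 CPM. Each SE given is the absolute log2 value divided by the square root of the test's F statistic. It is not a standard error reported by the fit. The scripts were tested on simulated data. All 43 members are named. Values in every library are given for the 10 members with the highest mean TPM and for those called in the mixtures, and of each other list the 3 genes called with the largest change in each direction are named. Alternatives were DESeq2 1.42.0 and its size factors, library totals, spike-in scaling, no filter, all 14 libraries in the fit, the file-name group as a term, other ways to set the expected level and leaving out each library. The series-wide table repeated the per-library values and was not used.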

Additional observations from a re-analysis of the deposited data

How the results depend on the processing

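No paired analysis was possible because the replicate numbers only name libraries and pair none across conditions. Leaving out each library in turn gave 1 to 3 members called in the trend, 2 to 8 against additive mixing, 13 to 20 calls in the list of other matrix genes and 5 to 11 in the list of receptors. For the members called between the pure lines it gave 23 to 29, and for collagen synthesis 11 to 16. Where it left 1 library of a line, that library was assumed to vary like the other line's pair. With the file-name group as a term, 0 members were called in the trend by edgeR. With spike-in scaling 38 were called, all upward, beside 13654 upward calls over all genes. The sign of FBN1 between the pure lines turned under DESeq2 size factors to -0.0217, and leaving out each pure library gave -0.41 to 0.66. That of TIMP2 turned under library totals to 0.0705, no filter (0.0043) and spike-in scaling (3.40), and its trend turned under spike-in scaling (1.09). GPC2 (0.83), CD47 (2.08) and UTRN (2.58) turned under spike-in scaling between the pure lines. The cause of these changes was not tested, beyond the shift of all genes under spike-in scaling. Of 348 values of single members between the pure lines under the alternatives, 313 kept both direction and side of the threshold. Depth limits the members with few counts in both lines: COL1A2, COL11A1, TNC and THBS1 had at most 8 counts over a line's pair of libraries and were not tested. With 2 technical libraries a condition, no value covers the spread between cultures.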
